A study of Homo sapiens with 2 samples.

Results

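The aryl hydrocarbon receptor axis was followed in Hep3B cells, an established human hepatocellular carcinoma line, as 6 genes picked by symbol: the receptor AHR, its partner ARNT, the repressors AHRR and TIPARP, and the cytochrome P450 genes CYP1A1 and CYP1B1. All 6 had values, out of 11511 genes with values in all. RNA-seq was done on 1 library of untreated Hep3B cells, the control, and 1 library of Hep3B cells given 25 µM A4368, a compound known here only by its code, for 24 h. Both groups share the line and its culture in DMEM with serum, and no vehicle is named for the control, so the compound and its solvent cannot be told apart. With 1 library per group there was no measure of replicate spread, no test was possible, and every difference below is one between these libraries.

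AHR is a ligand-activated transcription factor of the bHLH-PAS family that waits in the cytoplasm with HSP90 and p23. On binding a planar aromatic ligand it moves to the nucleus, pairs with ARNT and binds DNA at xenobiotic response elements built around the core GCGTG. In liver it is known for inducing CYP1 enzymes, which oxidise such ligands, while AHRR and TIPARP, themselves induced by the receptor, restrain it.

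The table gave FPKM, read fragments normalised to transcript length and library size, with a median over genes of 13.3 FPKM in untreated and 13.5 FPKM in treated cells. The depth of the libraries is unknown, so no counting interval or detection limit is given. All 13 hepatocyte and hepatoma markers examined were measured, up to 9183 FPKM for ALB, the albumin gene, in the control, and none of the 4 endothelial, 4 leukocyte and 4 fibroblast markers looked up had a value. The bulk values cannot separate a change in how many cells express a gene from a change in its RNA per cell.

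The promoters of the repressor genes and of CYP1A1 are shown because these targets had higher values with A4368 and carry the core that the receptor dimer reads. Both traits were thus set by the choice, and a link between them was not tested. RefSeq windows of 300 bases, from 250 before to 50 after an annotated start on GRCh38.p14, matched 5 of the 6 genes by symbol and gave 8 windows. Capitals mark GCGTG, or CACGC where the core lies on the opposite strand. The windows are chr15:74725479-74725778 on the minus strand for CYP1A1, chr3:156674340-156674639 on the plus strand for the first TIPARP start, and chr5:321464-321763 on the plus strand for the first AHRR start.
CYP1A1: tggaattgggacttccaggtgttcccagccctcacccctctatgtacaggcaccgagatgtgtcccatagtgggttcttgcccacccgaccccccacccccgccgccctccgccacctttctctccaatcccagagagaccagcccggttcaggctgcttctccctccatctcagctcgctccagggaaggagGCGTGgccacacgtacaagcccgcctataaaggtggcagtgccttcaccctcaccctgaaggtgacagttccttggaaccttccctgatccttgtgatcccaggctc
TIPARP: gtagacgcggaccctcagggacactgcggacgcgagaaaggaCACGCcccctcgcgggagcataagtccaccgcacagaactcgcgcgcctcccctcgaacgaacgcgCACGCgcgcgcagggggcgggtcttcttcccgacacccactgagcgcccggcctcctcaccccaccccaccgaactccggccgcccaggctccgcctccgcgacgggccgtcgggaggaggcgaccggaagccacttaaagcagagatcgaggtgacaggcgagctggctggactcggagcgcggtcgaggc
AHRR: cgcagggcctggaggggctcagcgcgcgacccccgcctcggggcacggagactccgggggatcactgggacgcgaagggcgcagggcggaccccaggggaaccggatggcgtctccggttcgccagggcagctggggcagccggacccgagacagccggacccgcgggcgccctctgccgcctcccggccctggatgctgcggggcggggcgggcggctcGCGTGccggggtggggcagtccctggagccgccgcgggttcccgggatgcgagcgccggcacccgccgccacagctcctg

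In the CYP1A1 window 1 core lay from -57 to -53 relative to the start. The first TIPARP window held 2 cores on the opposite strand, from -208 to -204 and from -142 to -138, and the other 2 TIPARP windows held 0. The AHRR window shown held 1 core from -30 to -26, and the second AHRR window held 2. AHR itself had 1 core after its start, from 38 to 42, and the ARNT window had 0. A core is common, since 36.5% of 35116 promoter windows of this length hold at least 1 on either strand. In 12.7% of the windows there are 2 or more. Those are shares of windows, and a gene can have several. By gene, 9295 genes averaging 1 FPKM or more had a window. In the window with most cores, 3184 of them had 1 core and 2327 had 2 or more. The longer form TNGCGTG, which contains the core, was present in 5.51% of windows and, among the 8 windows, in the AHRR window shown. The bases after the start of that window were not found in a GENCODE release 29 transcript of AHRR, whereas those of the second AHRR window were. The core ACGTG, read by HIF with ARNT, was in 21.4% of windows, and among the 8 it occurred in those of CYP1A1 and AHR. These matches are letters in short windows, and the CYP1A1 enhancer known from earlier work lies further upstream than the window reaches.

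The receptor gene and its partner each had a similar level in both libraries. AHR stood at 62.1 FPKM in untreated and 59.5 FPKM in treated cells, a ratio of 0.958. The control was thus slightly higher, and AHR was the only one of the 6 genes on that side. ARNT, which also serves HIF as partner, stood at 17.3 FPKM in untreated and 18.8 FPKM in treated cells, or 1.09-fold higher. AHR RNA exceeded ARNT RNA in both libraries, by 3.59-fold in the control and 3.16-fold with A4368. Both ratios of A4368 to control lay inside the bulk of genes of like level. Of the 4394 genes with a mean of 5 to 20 FPKM, 33.8% had a ratio at least as high as that of ARNT, and of the 3447 genes at 20 to 100 FPKM, 38.0% had a ratio at least as low as that of AHR.

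The feedback repressors had higher values with A4368. TIPARP, a mono-ADP-ribosyltransferase also called PARP7 that modifies AHR and limits its activity, stood at 17.3 FPKM in untreated and 23.9 FPKM in treated cells. It was 1.38-fold higher, with a log2 ratio of 0.44 on the log2(FPKM + 1) scale used below. That ratio was the 323rd highest of 11238 genes averaging 1 FPKM or more, of which 2.87% had one as high. By its mean TIPARP fell among the genes at 20 to 100 FPKM, where the share was 1.36%. Its control value lay below 20 FPKM, so it joined them only through its A4368 value. The log2 ratios of genes at 5 to 20 FPKM scattered more, with an SD of 0.255. AHRR, which competes with AHR for ARNT, stood at 1.53 FPKM in untreated and 2.01 FPKM in treated cells, or 1.32-fold higher. At that level the ratios scatter more: the SD of the log2 ratio across the 2476 genes at 1 to 5 FPKM was 0.34, and 19.7% of them had a ratio at least as high as the AHRR log2 ratio of 0.25. Across the genes at 20 to 100 FPKM the SD was 0.21.

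CYP1A1, the target most used as a readout of the receptor, showed the largest difference of the 6 genes. It stood at 21.9 FPKM in untreated and 44.4 FPKM in treated cells, a gain of 22.5 FPKM. The log2 ratio of 0.99 was the 14th highest of 11238 genes. Among the 3447 genes at 20 to 100 FPKM, 2 had a ratio at least as high, CYP1A1 included. The other is C4orf48, named after its value was seen, which stood at 17.8 FPKM in untreated and 44.5 FPKM in treated cells. C4orf48 lay below 20 FPKM in the control and joined these genes only through its A4368 value. CYP1A1 moved from rank 4012 to rank 2143 by level among all genes with values.

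CYP1B1, the related P450 gene that is a receptor target in many extrahepatic tissues, stood near the lower limit of the table. It had 0.925 FPKM in untreated and 1.25 FPKM in treated cells, or 1.36-fold higher by a difference of 0.329 FPKM. Of genes at 1 to 5 FPKM, 22.1% had a ratio at least as high as its log2 ratio of 0.23. The control value of CYP1B1 lay below 1 FPKM. It thus joined the genes averaging 1 FPKM or more only through its A4368 value, so that share is descriptive only. CYP1A1 RNA exceeded CYP1B1 RNA by 23.7-fold in the control and 35.4-fold with A4368.

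**Figure D1:**
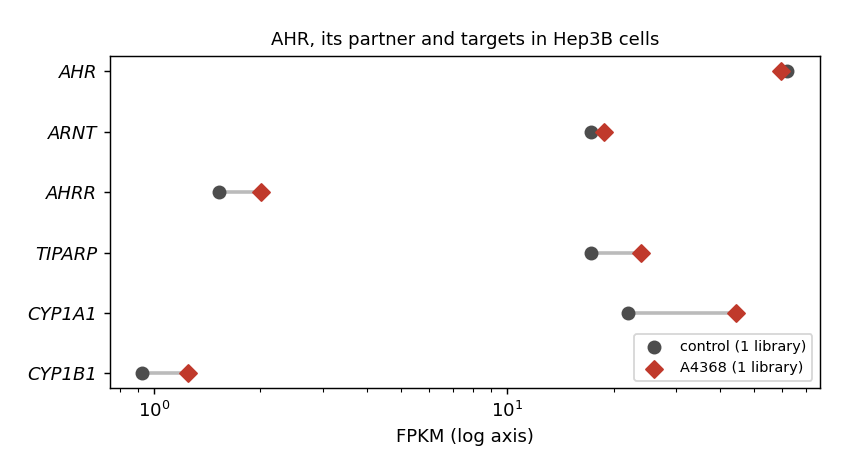
Each row is a gene, the horizontal axis is FPKM on a log scale, the circle is the control library and the diamond the A4368 library, with 1 library each and no error bars. The CYP1A1 points are farthest apart, at 21.9 and 44.4 FPKM, and the AHR points nearly coincide at 62.1 and 59.5 FPKM.

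The order of levels per transcript length differed between the libraries in the middle ranks. In the control AHR was highest, followed by CYP1A1, then ARNT and TIPARP at 17.3 FPKM each, then AHRR and CYP1B1. With A4368, TIPARP stood above ARNT, by 1.27-fold, and the other ranks were as in the control. Which neighbours in this order differ beyond culture spread cannot be said from 1 library each.

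Of the 6 genes, 5 had higher values with A4368, as did 52.0% of all 11238 genes, and their median log2 ratio was 0.24, against 0.0098 over all genes. The 6 were chosen with earlier results of these data known. CYP1B1 joined the genes averaging 1 FPKM or more only through its A4368 value. A 1.5-fold limit on the log2(FPKM + 1) scale was passed upward by 1 of the 6, CYP1A1, and by 1.08% of all genes. Downward it was passed by 0 of the 6 and by 2.12% of all genes. The 2-fold limit on this scale was passed by 0 of the 6, upward by 13 genes or 0.116% of all and downward by 0.436%. CYP1A1 lies just outside it because the pseudocount of 1 lowers the fold: as a plain ratio it was 2.03-fold higher, a level of 2 or more that 44 genes, 0.392%, reached. Next below CYP1A1 in rank was CHAC1, a glutathione-degrading enzyme gene named after its value was seen, at 29.8 FPKM in untreated and 59.3 FPKM in treated cells.

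**Figure D2:**
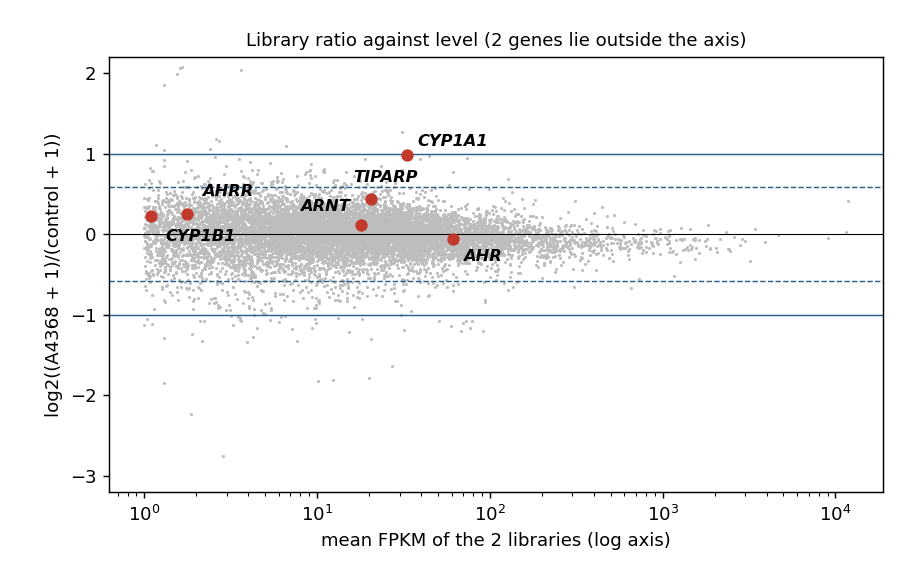
Each grey point is a gene, with its mean FPKM on a log axis and its log2 ratio of A4368 to control with a pseudocount of 1; of 11238 genes, 2 lie outside the ratio axis. Dashed lines mark 1.5-fold and solid lines 2-fold; the 6 genes are red, and CYP1A1 sits at 0.99, just under the upper solid line, while the others lie between the dashed lines.

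Other genes can share reads with these. In GENCODE release 29 the CYP1A1 transcripts share 0.78% of their 31-base words with another gene, CYP1A2, and those of TIPARP share 0.14%, with TIPARP-AS1. ARNT shares 2.17% and AHRR 3.26%, the latter mostly with PDCD6, an overlapping gene on the same strand at 94.7 FPKM in untreated and 92.3 FPKM in treated cells. CYP1B1 shares 9.73% with its antisense gene CYP1B1-AS1, and RMDN2, which overlaps it on the opposite strand, stood at 2.14 and 1.42 FPKM. AHR shares 34.9%, mostly with AC019117.2, a gene model that overlaps it on the same strand. No source used here says whether counting used strand, so reads of CYP1B1 and its opposite-strand neighbours may not have been told apart. AHRR and PDCD6 overlap on the same strand, which strand cannot separate, and the low AHRR values are uncertain for that reason.

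The genes nearest in level over both libraries, by Euclidean distance on the log2(FPKM + 1) scale over 2 libraries, were close for most of the 6. SDHB, a succinate dehydrogenase subunit gene, and IPO7, an importin gene, lay nearest AHR, GTF2A1 and MAU2 nearest ARNT, and ENTPD8 and IL18BP nearest AHRR. GCAT and NUDT9 lay nearest TIPARP, EML6 and DNM3 nearest CYP1B1. These distances ran from 0.00162 to 0.024, whereas CYP1A1 lay 0.166 from PTCD3 (22.2 FPKM in untreated and 39.5 FPKM in treated cells) and 0.285 from C4orf48.

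The wider pathway was described by 9 lists of 146 gene symbols, of which 105 had values averaging 1 FPKM or more. Of these, 3 were at least 1.5-fold higher, or 2.86%, and 5 at least 1.5-fold lower, or 4.76%, beside the 1.08% and 2.12% of all genes given above. Their median log2 ratio was 0.039. The lists were chosen with earlier results of these data known, so these shares are no independent comparison with all genes. None of the 105 passed the 2-fold limit on the log2(FPKM + 1) scale, which understates the folds of low genes such as EGLN3. All 8 past 1.5-fold are named in the paragraphs that follow.

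The cytoplasmic complex of the receptor had near-equal levels. HSP90AA1 stood at 658 FPKM in untreated and 721 FPKM in treated cells, and HSP90AB1, the other cytosolic HSP90, at 683 and 629 FPKM. PTGES3, the p23 co-chaperone gene, stood at 421 FPKM in both libraries. SRC, a kinase gene, was 1.02-fold higher. The median log2 ratio of the 5 genes on this list was 0.026.

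Of the partners with values, 1 of 11 passed the 1.5-fold limit, downward, and of the coregulators 0 of 14. Over all genes, 1.08% passed it upward and 2.12% downward. Among 11 of 16 bHLH-PAS and related genes with values, 4 were higher and 7 lower, with a median of -0.085. NPAS2, a clock factor gene, was at least 1.5-fold lower, at 5.86 FPKM in untreated and 3.52 FPKM in treated cells, and NCOA1, a coactivator gene, was 1.46-fold higher from 2.45 FPKM. Of 14 transcription cofactors and regulators, 8 were higher and 6 lower, with a median of 0.033 and a mean of -0.032. RELB, the NF-kappaB subunit gene whose product can pair with AHR, was 1.42-fold lower at 9.37 and 6.61 FPKM, and NRIP1, a corepressor gene, was 1.18-fold lower.

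Other genes known to respond to the receptor had ratios on both sides of 0. Of 23 on the list 13 had values, 5 higher and 8 lower with A4368, with a median of -0.078. CYP1A2 and ALDH3A1 are among the 10 not analysed here. CDKN1A, which encodes the cell cycle inhibitor p21, was 1.76-fold higher, at 6.56 FPKM in untreated and 11.6 FPKM in treated cells. NEDD9, a scaffold protein gene of cell adhesion, was 1.85-fold lower, at 17.1 and 9.21 FPKM. UGT1A6, a glucuronosyltransferase gene, was 1.71-fold lower, at 11.5 and 6.77 FPKM, although it shares 61.8% of its words with other genes, among them the rest of the UGT1A cluster. With both libraries rescaled to a common sum without their 50 highest genes, 6 of the 13 were higher. That rescaling also raised the share of all genes with higher values from 52.0% to 60.9%.

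Genes that make or remove ligands from tryptophan showed no common direction. Of 15 symbols on the list 7 had values, 4 higher and 3 lower, with a median of 0.015 and a mean of -0.043. The list holds both older and current symbols of some kynurenine aminotransferase genes, so it covers fewer genes than symbols. KYNU, the kynureninase gene, was 1.88-fold lower, at 5.23 FPKM in untreated and 2.78 FPKM in treated cells. HAAO, which acts later in the same pathway, was 1.31-fold higher at 12.6 and 16.5 FPKM.

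TIPARP belongs to the ADP-ribosyltransferases, whose other genes and hydrolases were mixed. Of 22 on the list 17 had values, 10 higher and 7 lower with a median of 0.045, or 13 higher after the rescaling, which also raised the share of all genes with higher values from 52.0% to 60.9%. MACROD1, which removes mono-ADP-ribose, was 1.86-fold higher, at 4.31 FPKM in untreated and 8.02 FPKM in treated cells. PARP3 was 1.76-fold lower, at 2.90 and 1.65 FPKM, with a log2 ratio of -0.56 that misses the 1.5-fold limit.

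P450 enzymes need electrons and heme. Of 14 genes for this supply 10 were higher with A4368 and 4 lower, or 11 and 3 after the rescaling, none by 1.5-fold, with a median of 0.10. Of all genes, 52.0% were higher as deposited and 60.9% after the rescaling. POR, the reductase that serves microsomal P450s, stood at 30.6 FPKM in untreated and 38.1 FPKM in treated cells, or 1.25-fold higher. ALAD, an early enzyme of heme synthesis, was 1.20-fold higher. Among other xenobiotic receptors and P450s, 8 of 20 had values, 6 higher and 2 lower with a median of 0.22, or a mean of 0.10. One of the higher genes, CYP2U1, stood at 0.769 FPKM in untreated and 1.23 FPKM in treated cells. It joined the genes averaging 1 FPKM or more only through its A4368 value. CYP2R1, a vitamin D hydroxylase gene, was 1.34-fold higher at 7.06 and 9.45 FPKM, and NR1H4, the bile acid receptor gene, was 1.56-fold lower at 10.3 and 6.63 FPKM.

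HIF targets, which depend on ARNT as the partner of HIF, were split evenly. Of 16 with values, 8 were higher and 8 lower, with a median of 0.042. BNIP3L, a mitophagy receptor gene, was 1.86-fold higher at 6.34 FPKM in untreated and 11.8 FPKM in treated cells, and EGLN3, an oxygen-sensing hydroxylase gene, was 2.89-fold lower at 1.66 and 0.573 FPKM. EGLN3 joined the genes averaging 1 FPKM or more only through its control value. Its fold and its place among the lower genes are descriptive only.

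**Figure D3:**
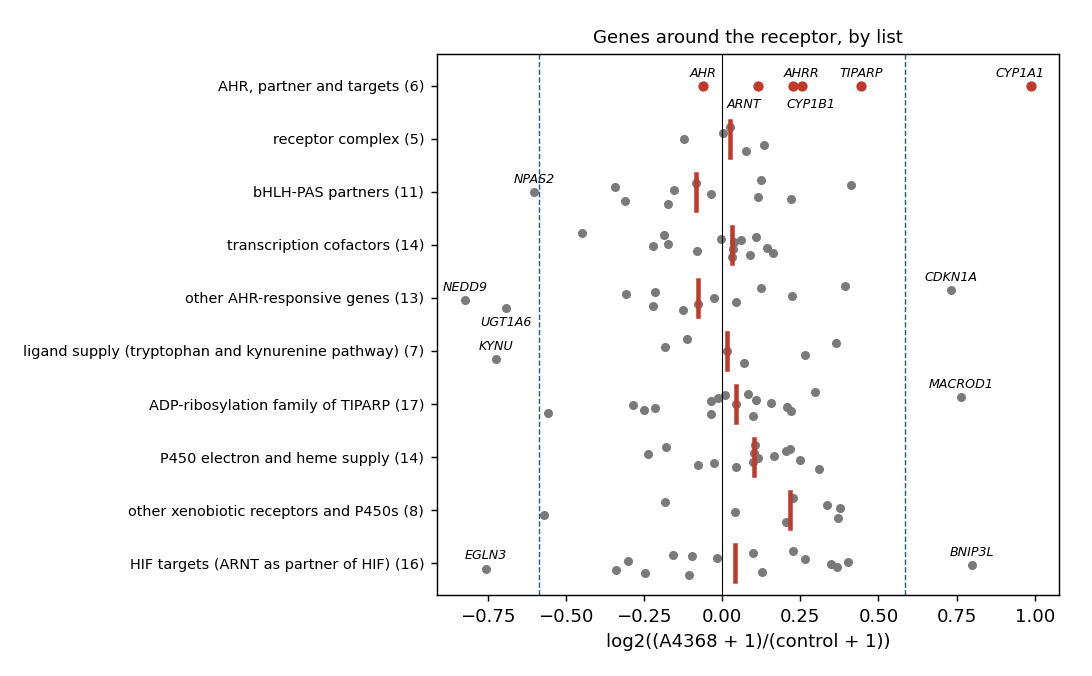
Each grey point is a gene averaging 1 FPKM or more, placed by its log2 ratio of A4368 to control with a pseudocount of 1, in rows by list with the number of genes in brackets, and the red bars are list medians. The top row shows AHR, ARNT and the 4 targets in red; dashed lines mark 1.5-fold, the 8 list genes beyond them are labelled, and CYP1A1 at 0.99 lies to the right of all list genes.

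Across the genome, genes were also grouped by the number of GCGTG cores in their promoter window. A window was found for 9295 of 11238 genes, or 82.7%, with the window holding most cores taken per gene. The median log2 ratio was 0.0099 in the 3784 genes with 0 cores, 0.0093 in the 3184 with 1 and 0.014 in the 2327 with 2 or more. The shares at least 1.5-fold higher on the log2(FPKM + 1) scale were 0.819%, 1.19% and 0.902%. The shares at least 1.5-fold lower were 2.75%, 1.66% and 1.42%. For each gene the highest GC content among its windows was taken, with medians over genes of 65.0%, 67.7% and 69.7%. A highest value can rise with the number of windows alone. The mean number of windows per gene was 1.26, 1.54 and 1.69, so genes with more annotated starts fell more often into the classes with cores. The part of base composition and of the number of starts in these shares was not tested.

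**Figure D4:**
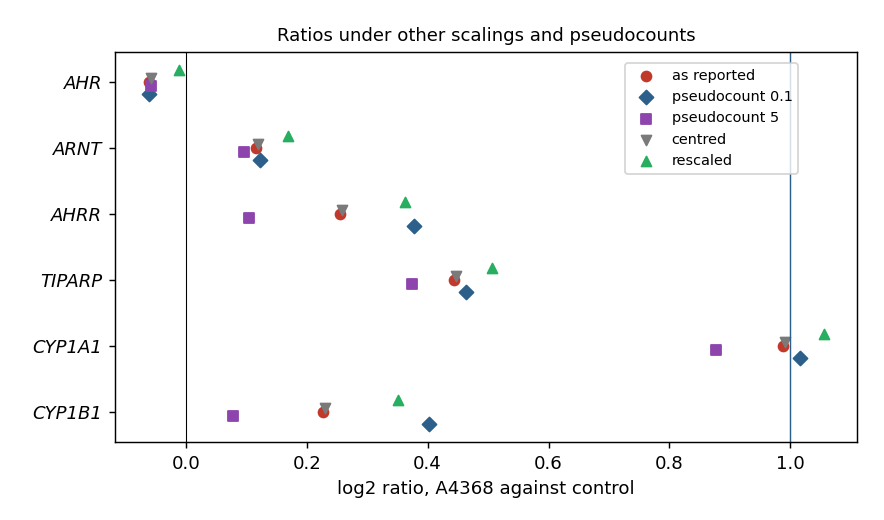
Each row is a gene and the horizontal axis is its log2 ratio of A4368 to control under 5 settings, shown by marker; the vertical line at 1 is 2-fold. CYP1A1 ranges from 0.88 to 1.06, crossing the line with a pseudocount of 0.1 and after the rescaling, and AHR keeps a value below 0 in all 5. A change of pseudocount cannot alter the sign.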

How the data were processed

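RNA-seq of Hep3B cells gave 1 library per group, grouped by the treatment label. The values the authors deposited were read as FPKM: the header names no unit, the values are not whole, and Cufflinks is named, with hg19, Bowtie2 2.2.3 and TopHat2 2.0.12, per the submitters' processing notes. No source used here names the annotation or the filter on low genes; the lowest mean was 0.496 FPKM. Complete entries made up 11511 of the 24302 lines. The log2 ratio was log2((A4368 + 1)/(control + 1)) over the 11238 genes averaging 1 FPKM or more; folds in words are plain ratios. No p-value was computed. The members and lists were chosen with earlier results of these data known. Genes named were the 6 members, the 2 nearest genes in level to each, and from each list all past 1.5-fold, the 2 with the largest absolute ratio, and all members where 5 or fewer had values. Of these, 1 is not reported here. Promoters came from RefSeq (GRCh38.p14) and transcripts from GENCODE 29. No genome of the files' build was used, so no gene coordinates are given. Alternatives were pseudocounts of 0.1 and 5, no filter or a filter at 5 FPKM, centring on genes averaging 10 FPKM or more, rescaling to one sum that leaves out the 50 highest genes, a 1.5-fold limit and list means. The ratio and fold calls were tested on simulated data, which checks the calculation and gives no error rate for these libraries. Python 3.11.15, numpy 2.4.6, pandas 2.3.3 and matplotlib 3.10.9 were used.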

Additional observations from a re-analysis of the deposited data

How the results depend on the processing

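No paired analysis was possible because each group has 1 library. The direction of each of the 6 genes held after centring and after rescaling, which left AHR at -0.01. A change of pseudocount or filter cannot alter a direction, so those settings say nothing on this point. The log2 ratio ranged from 0.88 to 1.06 for CYP1A1, 0.37 to 0.51 for TIPARP, 0.10 to 0.38 for AHRR, 0.08 to 0.40 for CYP1B1, 0.10 to 0.17 for ARNT and -0.06 to -0.01 for AHR. A filter at 5 FPKM removes AHRR and CYP1B1. CYP1A1 passed 2-fold with a pseudocount of 0.1 (1.02) and after rescaling (1.06), which moved the median of all genes by 0.05. Its rank ran from 3 with the filter at 5 FPKM to 38 with a pseudocount of 0.1. Genes past 2-fold numbered 13 higher and 49 lower as reported, 38 and 102 with a pseudocount of 0.1, 2 and 15 with a pseudocount of 5, and 2 and 28 with the filter at 5 FPKM. They were 31 and 66 after rescaling and 121 and 238 at a 1.5-fold limit. The rescaling put 60.9% of all genes higher, against 52.0%. List means had the opposite sign to the medians for cofactors (-0.032) and ligand supply (-0.043). A lower pseudocount weighs low genes more and a stricter filter leaves fewer genes. The unknown depth limits CYP1B1 and AHRR most, since both lie near the lowest values of the table.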
